A study of Drosophila melanogaster with 5 samples.

Results

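The comparison described here is that of 2 Ribo-Seq samples of *D. melanogaster* S2 cells, of the 5 samples in the series. In one, lysate was footprinted with E-RNaseI in Buffer 2, and in the other with A-RNaseI in Buffer 1, both in the absence of cycloheximide treatment. They were chosen by their labelled treatment, as the untreated samples of standard depth. The question was what the RNase and its buffer changed in the ORFs that were called and in the P-sites assigned to each gene. There was 1 sample on each side, so no difference was set against a spread between replicates and no p-value is given.

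S2 cells are a line derived from late embryos, grown in Schneider's medium with serum. E-RNaseI is RNase I from Thermo Fisher (EN0601), and A-RNaseI is RNase I from Ambion (AM2295), used by the methods at about 0.4 U and 20 U for the same number of cells. Buffer 1 was the saltier one, at 150 mM NaCl with 50 mM Tris-HCl. Buffer 2 had 100 mM Tris-HCl with 30 mM NaCl by the methods, or 50 mM NaCl by the sample labels. Both held 10 mM MgCl2. The enzyme, its amount and the buffer changed together, so their effects cannot be told apart. Neither sample was treated with cycloheximide before harvest, but all cells of the series, untreated ones included, were washed and lysed in solutions that contained it. Digestion was overnight at 4°C, 80S ribosomes were taken from sucrose gradients, and footprints were cut from gels between 28 and 34 nt. The remaining samples are the same RNase and buffer pair in the presence of cycloheximide and a deep sample of E-RNaseI, Buffer 2, in its absence. They are used here only as further readings of the same ORFs.

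A ribosome on an mRNA shields a short stretch of it from nuclease, and RNase I trims the mRNA on either side, so that each surviving fragment marks where a ribosome stood. The P-site is the position in the ribosome of the tRNA that carries the growing peptide. When fragments are trimmed evenly, the inferred P-sites move along an ORF in steps of a codon, and this triplet periodicity is what an ORF caller such as RiboTaper tests. How evenly an RNase trims therefore bears on which ORFs can be called and on where a start codon is placed.

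Each deposited list holds the translated ORFs of a sample with a whole number for each ORF, read here as its count of P-sites, since no text names it. ORFs were given to genes by their position within the annotated gene spans, and 94.2% of the ORFs with E-RNaseI and 95% of those with A-RNaseI lay in exactly 1 gene. The depth was nearly equal. The annotated (CCDS) ORFs of all genes held 530682 P-sites for E-RNaseI and 530489 for A-RNaseI, over 4803 and 3862 genes. No ORF in either list had fewer than 6 P-sites. Read lengths of 27 to 30 nt were used for E-RNaseI and of 29 to 32 nt for A-RNaseI, so the choice of read length changed with the RNase as well. Of 11 hemocyte markers, 5 were found with E-RNaseI (Pxn, crq, drpr, srp and ush, 1086 P-sites) and 6 with A-RNaseI (the same and Col4a1, 992 P-sites), while He, Hml, NimC1, eater and vkg were in neither list. None of the 4 neuronal, 4 muscle or 4 fat body markers was found with either RNase. Of 3 germline markers, aub was in both lists, bam had 8 P-sites with E-RNaseI only, and vas was in neither.

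At this equal depth the P-sites with E-RNaseI were spread over more genes. The list with E-RNaseI held 4808 genes and that with A-RNaseI 3865, of which 3655 were shared, 1153 were found with E-RNaseI only and 210 with A-RNaseI only. The shared genes were 94.6% of those with A-RNaseI (95% Wilson interval 93.8 to 95.2) and 76.0% of those with E-RNaseI (74.8 to 77.2). Intervals here and throughout cover counting error only. By stop codon, 4305 were shared, 1506 were found with E-RNaseI only and 296 with A-RNaseI only. The median stop codon held 39 P-sites for E-RNaseI and 52 for A-RNaseI, and the 10 most abundant genes took 8.65% and 9.74% of all P-sites. A gene found with 1 RNase only was called in that list only, which does not show that it was not translated in the other lysate.

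The stop codons found with 1 RNase only were mostly weakly covered. Those of E-RNaseI only had a median of 18 P-sites, against 56 for shared stop codons in the same list, and 55.0% had fewer than 20. Those with A-RNaseI only had a median of 12 P-sites, against 57, and 76.7% had fewer than 20. The asymmetry was also there when stop codons were classed by the P-sites of their own list. This did not match their coverage in the other list. The class of 20 to 49 P-sites was larger with E-RNaseI (1918 against 1392 stop codons). The numbers found in the other list were nearer, at 1385 and 1340. Of stop codons with 20 to 49 P-sites, 72.2% of those with E-RNaseI (70.2 to 74.2) were also found with A-RNaseI, whereas 96.3% of those with A-RNaseI (95.1 to 97.1) were also found with E-RNaseI. With 200 or more P-sites, 16 of 671 were not found with A-RNaseI, and 4 of 694 were not found with E-RNaseI. The direction was the same in each class of ORF length, which was also that of the own list. Under 300 nt, 51.2% of stop codons with E-RNaseI were found with A-RNaseI and 78.6% in reverse, and at 4800 nt or more the shares were 88.1% and 99.1%.

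**Figure D1:**
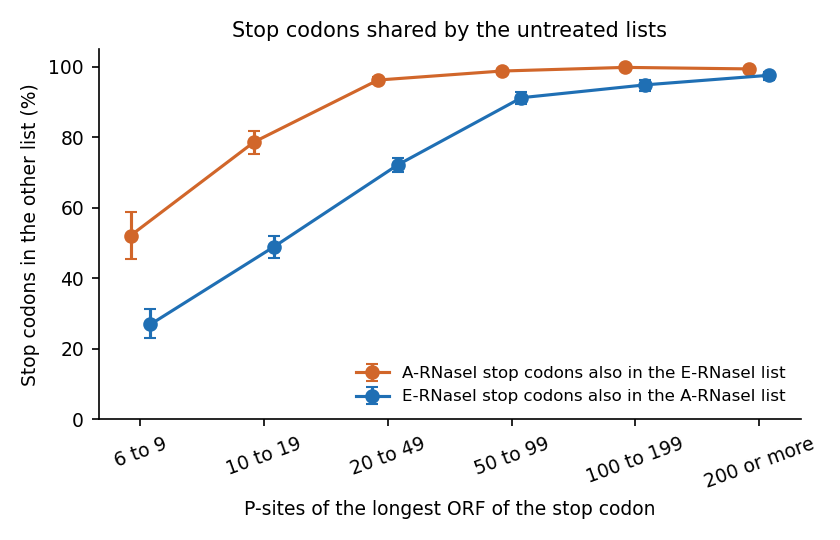
Share of the stop codons of each untreated list that were also in the other list (%), by the P-sites of the longest ORF ending at the stop codon in the first list. Bars are Wilson 95% intervals. At 20 to 49 P-sites the share was 96.3% for stop codons found with A-RNaseI and 72.2% for those found with E-RNaseI, and above 200 P-sites the shares were 99.4% and 97.6%.

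Most of these ORFs reappeared in other lists, of which the deep one is not counted as a separate sample. On the same ORFs it differed from the standard list of E-RNaseI by about counting noise. Of the 1506 stop codons found with E-RNaseI only, 93.9% were called with the same RNase after cycloheximide treatment, 56.7% (54.2 to 59.2) with A-RNaseI after that treatment, and 98.9% in the deep list. Of the 296 found with A-RNaseI only, 47.0% (41.3 to 52.6) were called with A-RNaseI after cycloheximide treatment, and 82.4% with E-RNaseI after it. The deep list of E-RNaseI, without cycloheximide, held 92.2% of them. For the 4305 stop codons shared by both untreated lists, these shares were higher. They were 99.2% with E-RNaseI and 89.8% with A-RNaseI after cycloheximide treatment, and 99.9% in the deep list. The pair in the presence of cycloheximide had the same asymmetry, with 1329 genes found with E-RNaseI only and 64 with A-RNaseI only, but there E-RNaseI also had more P-sites, 1654039 against 771445.

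Some genes found with E-RNaseI only were heavily covered. Fkbp12 (2R from 19290109 to 19290962, RefSeq genes of Release 6), a peptidyl-prolyl isomerase of the FK506-binding family, had 799 P-sites with E-RNaseI and no ORF in the list of A-RNaseI. RpL28 (3L from 3220911 to 3222960), a protein of the large ribosomal subunit, had 791. Neither gene had an ORF in a list in the presence of cycloheximide, with either RNase, while the deep list gave 10935 and 10932 P-sites. These are cases in which an ORF with many P-sites was not called in 3 of the 4 standard lists.

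Bacc had 742 P-sites with E-RNaseI, 3057 with E-RNaseI after cycloheximide treatment and 10714 in the deep list, and was in neither list of A-RNaseI. HmgD, an HMG-box chromatin protein, followed the same pattern, with 423, 876 and 5828 P-sites. Both were thus in every list of E-RNaseI and in no list of A-RNaseI. The other genes of this kind with the most P-sites were called with A-RNaseI once cells had been treated with cycloheximide. CG2852, a cyclophilin-type isomerase, had 565 P-sites with E-RNaseI, 1291 (E-RNaseI) and 654 (A-RNaseI) after cycloheximide treatment, and 8316 in the deep list. CNBP had 409, Jupiter, a microtubule-associated protein, 358, CG3226 277, Swip-1 250 and RpS28b, of the small ribosomal subunit, 221 P-sites with E-RNaseI.

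With A-RNaseI only, the most covered gene was porin (2L from 10847227 to 10850848), which encodes the voltage-dependent anion channel of the outer mitochondrial membrane. It had 1387 P-sites with A-RNaseI, 4790 (E-RNaseI) and 1922 (A-RNaseI) after cycloheximide treatment, and was in neither the standard nor the deep list of E-RNaseI in its absence. Idh3a, a subunit of mitochondrial isocitrate dehydrogenase, had the same pattern at lower counts, with 125, 375 and 192 P-sites. So porin and Idh3a were called with E-RNaseI where cycloheximide was present and in neither sample where it was not. RpL39 had 544 P-sites with A-RNaseI, 8852 in the deep list and no ORF in the others. The gene vig2 had 418 with A-RNaseI, 1022 with E-RNaseI after cycloheximide treatment and 4995 in the deep list. The next 6, Jheh1, mRpS33, Tes, Clbn, ScpX and ND-B14.5A, had between 62 and 76 P-sites, and all 6 were in the deep list.

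The gene groups differed in how many members were found with 1 RNase only. Of 5014 genes with an annotated ORF in either list, 1152 (23%) were found with E-RNaseI only and 211 (4.21%) with A-RNaseI only. Mitochondrial ribosomal proteins, which build the ribosome that translates mitochondrial mRNAs, stood above that share. Of 67 found in either list, 26 (38.8%) were found with E-RNaseI only and 2, mRpL37 and mRpS33, with A-RNaseI only. These 26, among them mRpL1, mRpL11, mRpS2 and mRpS5, had between 10 and 42 P-sites with E-RNaseI (median 23.5), and the shared members a median of 47. That was the lowest such median of the 16 groups. As a group, mitochondrial ribosomal proteins took 0.507% of all P-sites for E-RNaseI and 0.396% for A-RNaseI. A member absent from a list adds nothing to its sum, so these shares follow in part from the calls. For the 37 members compared in both lists, the median log2 ratio of P-site shares, E-RNaseI to A-RNaseI, was 0.00. It was −0.15 on the same ORFs.

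Subunits of the respiratory chain and ATP synthase were nearer the background, with 12 of 67 (17.9%) found with E-RNaseI only and 1 with A-RNaseI only. The 12 had 34 to 218 P-sites. They included subunits of complex I (ND-19, ND-51, ND-B12, ND-B15, ND-B18 and ND-ASHI) and of complex III (UQCR-6.4 and UQCR-Q). The others were ATPsynE and ATPsyndelta, of ATP synthase, with ox and sun. Of 29 aminoacyl-tRNA synthetases, which charge tRNAs with their amino acids, 6 (20.7%) were found with E-RNaseI only. That was near the background of 23%. All of these but LysRS were mitochondrial enzymes by their symbols (ArgRS-m, AsnRS-m, IleRS-m, MetRS-m and TrpRS-m), and so was PheRS-m, found with A-RNaseI only. Other mitochondrial enzymes of the group, AlaRS-m, AspRS-m and LeuRS-m, were in both lists. Of 31 chromatin genes, Caf1-180, E(z), HP1c, HmgD and MBD-like (16.1%) were found with E-RNaseI only.

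The abundant complexes were found alike. All 30 proteasome subunits found were in both lists. Of 49 large subunit ribosomal proteins, RpL28 was found with E-RNaseI only and RpL39 with A-RNaseI only. Of 32 small subunit ribosomal proteins, RpS14a, RpS15Ab and RpS28b were found with E-RNaseI only and RpS19b with A-RNaseI only. RpS14a, RpS15Ab and RpS19b have near-identical or similar copies, so that reads may be split between copies and these calls are uncertain. Of 41 translation factors, 3 (7.32%) were found with E-RNaseI only, below the 23% over all genes. They were eIF2Balpha, eIF2Bdelta and eIF2Bgamma, all subunits of the exchange factor that reloads eIF2 with GTP, with 24 to 28 P-sites. Another subunit of it, eIF2Bepsilon, was in both lists. Of 28 genes for cyclins and mitosis, Cdk1, CycE and Ndc80 (10.7%) were found with E-RNaseI only.

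The same stop codon often had another start codon in the other list. An ORF identifier is its transcript with its start and stop, and 3161 identifiers were shared, 47.7% of those with A-RNaseI (46.5 to 48.9) and 37.4% of those with E-RNaseI. Among 6037 pairs of ORFs with the same transcript and stop codon, 2876 had different start codons. The start codon lay further upstream with E-RNaseI in 1681 of these, or 58.4% (56.6 to 60.2), and with A-RNaseI in 1195. Transcripts of a gene share ORFs, so these pairs are not independent. The median distance was 408 nt where the start with E-RNaseI was upstream and 357 nt where that with A-RNaseI was. In the presence of cycloheximide the share upstream with E-RNaseI was 76.7%, at unequal depth.

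Start codons were more often the same where coverage was higher. Counted once per stop codon by its longest ORF, 27.3% of stop codons with 20 to 49 P-sites summed over both lists had ORFs of the same length (24.3 to 30.5), and 76.8% of those with 500 or more (72.8 to 80.3). By the methods, a start codon needed at least 5 P-sites between it and the following in-frame ATG, and the most upstream of these was taken. Where the lengths differed, E-RNaseI had the longer ORF for 64.2% of stop codons with 12 to 19 summed P-sites, 58.2% with 20 to 49, 50.4% with 50 to 99 and 79.5% with 500 or more, 89 against 23. The share thus fell and then rose with coverage. Where the deep list had either of these lengths, it was mostly the longer one, whichever RNase had given it. Of 1256 stop codons with the longer ORF with E-RNaseI, the deep list had that ORF length for 657, the length of A-RNaseI for 28 and neither for 571. Of 889 with the longer ORF with A-RNaseI, it had that length for 363, the length of the standard E-RNaseI list for 48 and neither for 478.

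**Figure D2:**
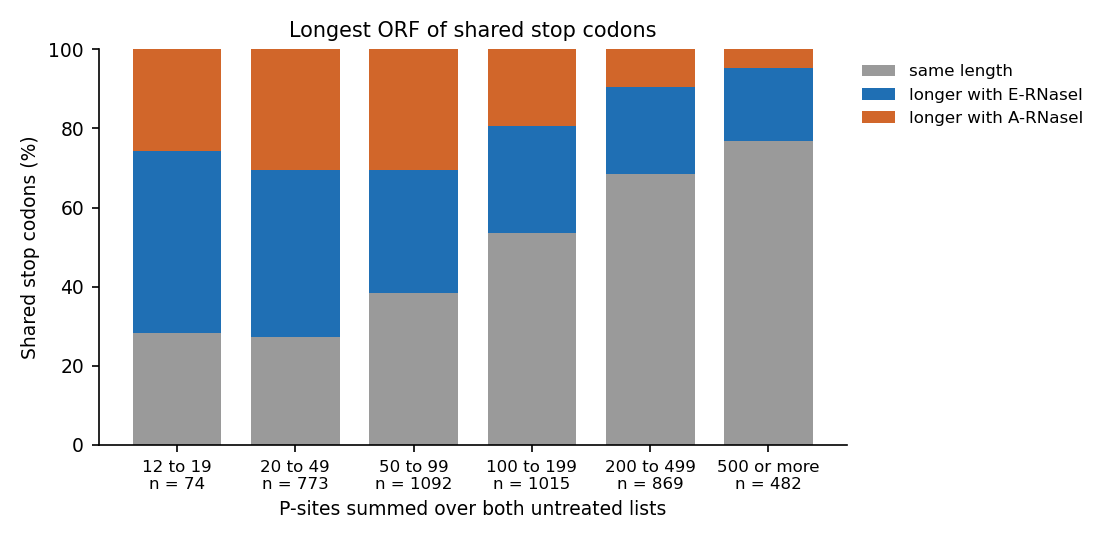
Stop codons found in both untreated lists (% of each class), by whether the longest ORF had the same length, was longer with E-RNaseI or was longer with A-RNaseI, against the P-sites summed over both lists. The number of stop codons is under each bar. The share with the same length was 27.3% at 20 to 49 P-sites and 76.8% at 500 or more.

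The largest distances between start codons were in long genes, on ORFs with at most 92 P-sites (spen, with E-RNaseI). In dpy, which encodes a giant extracellular matrix protein, the start codon with A-RNaseI lay 21840 nt upstream on 1 transcript, with an ORF of 61212 nt and 18 P-sites against 39372 nt and 6 P-sites with E-RNaseI. On another transcript of dpy, that with E-RNaseI lay 7125 nt upstream, with 19 and 18 P-sites. The gene thus went both ways, on transcripts with at most 19 P-sites. The transcriptional coactivator nej had an ORF of 9783 nt and 73 P-sites with E-RNaseI, and one of 4155 nt and 37 P-sites with A-RNaseI. The Z-disc protein gene Zasp52 had 6426 nt and 1149 nt, spen 15147 nt and 10053 nt, and Smr, a transcriptional corepressor, 9267 nt and 4389 nt. These are the genes in which E-RNaseI gave the far longer ORF. In reverse, fry had 4416 nt with E-RNaseI and 9546 nt with A-RNaseI, with 40 and 65 P-sites. The Mediator subunit gene skd had 936 nt and 5580 nt with 13 and 43 P-sites, Plp, a centrosomal protein, 2346 nt and 6873 nt, and cic, a transcriptional repressor, 2253 nt and 6309 nt. In the deep list the ORF of skd was 8304 nt and that of fry 10599 nt, longer than in either standard list.

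The share of P-sites that a gene took was compared for the 2947 genes called in both lists with at least 50 summed P-sites. The ratio is that of E-RNaseI to A-RNaseI. It was at least 2-fold higher with E-RNaseI for 67 genes (2.27%) and at least 2-fold higher with A-RNaseI for 72 (2.44%). The exact 95% interval of the ratio lay wholly above 1 for 314 genes (10.7%) and wholly below 1 for 525 (17.8%). The median ratio was −0.08 on the log2 scale, with an SD of 0.49 over genes. Totals here include genes called in 1 list only, and with the total of the genes in both lists the median was −0.004. The counts of intervals are given for the first scaling only. As a share of the genes past 2-fold, those higher with E-RNaseI were 48.2%. This was 61.3% when P-sites were divided by the total of the genes in both lists, 62.5% when ratios were centred on their median, 20.2% for P-sites per nt of ORF and 73.5% where the deep list replaced the standard one, so the balance between the sides changed with the scaling.

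Nearly all of these genes had another ORF in either list. Of the 1601 genes with the same ORF in both, 2 (0.125%) had at least a 2-fold higher share with E-RNaseI and 10 (0.625%) had one with A-RNaseI. The SD of their log2 ratio was 0.35. Of the 1346 genes with another start or stop codon, 65 (4.83%) and 62 (4.61%) were, and the SD was 0.61. A list counts only the P-sites inside the ORF it called. All 65 genes higher with E-RNaseI had the longer ORF with E-RNaseI, and 61 of the 62 higher with A-RNaseI had the longer ORF with A-RNaseI. In the pair with cycloheximide, 56 of the 65 were compared and 2 were at least 2-fold higher with E-RNaseI, while 57 of the 62 were compared and 0 were at least 2-fold higher with A-RNaseI. Against A-RNaseI without cycloheximide, the deep list of E-RNaseI had 48 of the 65 still at least 2-fold higher, and 1 of the 62 still at least 2-fold lower. This is no second measurement, since the genes were selected on the same A-RNaseI counts and the deep list was read as the same E-RNaseI sample. Where start codons differed between the deep list and A-RNaseI, the deep list had the upstream one in 91.3% of pairs. Over all genes of the pair with cycloheximide the shares past 2-fold, on the E-RNaseI and the A-RNaseI side, were 3.76% and 1.5%. They were 0.177% and 0.708% on the same ORF, and 8.42% and 2.54% on other ORFs.

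**Figure D3:**
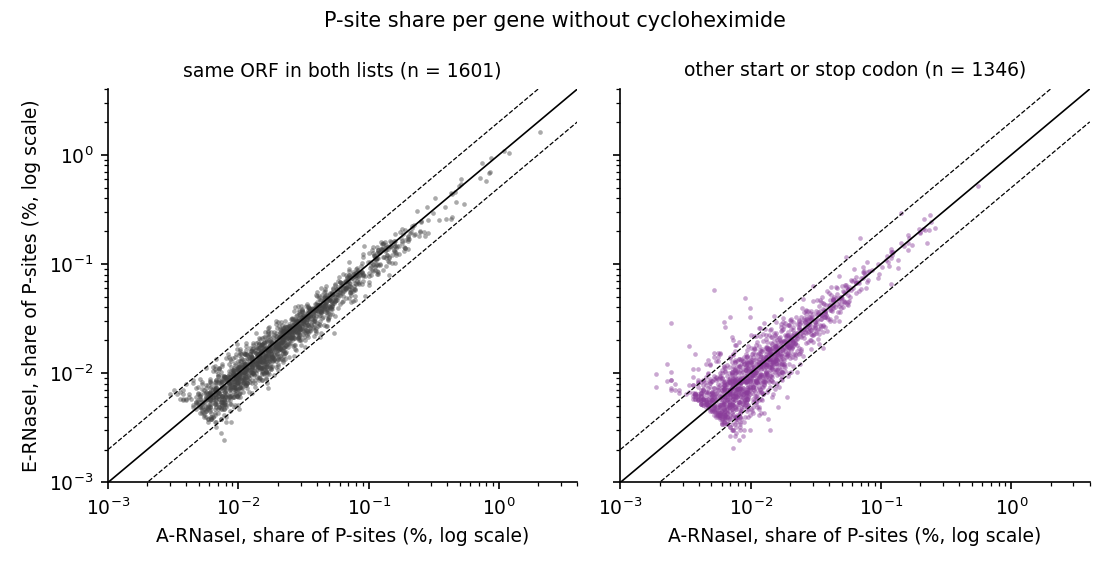
Share of all P-sites on annotated ORFs taken by each gene (%, log scale), with E-RNaseI (y) against A-RNaseI (x), for 1601 genes with the same ORF in both untreated lists (left) and 1346 genes with another start or stop codon (right). Each point is a gene, the solid line marks equal shares and the dashed lines a 2-fold difference. On the left 12 genes lie past 2-fold, and on the right 127.

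The genes of this kind with the ratios furthest from 1 were picked after their values were seen. Polr2F, a small subunit shared by RNA polymerases, had 304 P-sites with E-RNaseI on an ORF of 393 nt and 28 with A-RNaseI on one of 147 nt, a ratio of 10.9 (exact 95% interval 7.36 to 16.6). In the presence of cycloheximide it had 579 and 43 P-sites, a ratio of 6.28, again with the longer ORF with E-RNaseI. It was 1 of the 2 genes of the 65 that were past 2-fold in both pairs, and the deep list gave it an ORF of 216 nt with 814 P-sites. In spoon, 152 P-sites on 1755 nt with E-RNaseI stood against 13 on 663 nt with A-RNaseI, a ratio of 11.7 (6.63 to 22.5). With cycloheximide both RNases gave the ORF of 1755 nt and the ratio was 1.06 (0.91 to 1.25).

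The same was seen for p23, a co-chaperone of Hsp90, with 261 P-sites with E-RNaseI on 552 nt and 48 with A-RNaseI on 171 nt. Its ratio was 5.44 without and 1.10 with cycloheximide. Rab8, a small GTPase of vesicle traffic, had 94 P-sites on 621 nt and 18 on 48 nt, and ratios of 5.22 and 0.754. In both genes the ORF was the same with both RNases once cycloheximide was present. There were such genes on the A-RNaseI side too. The centriolar protein gene ana3 had 16 P-sites on 1419 nt with E-RNaseI and 74 on 5223 nt with A-RNaseI, with ratios of 0.216 without and 1.22 with cycloheximide. For Nup133, a scaffold nucleoporin, the values were 32 on 1509 nt and 101 on 3462 nt, and the ratios 0.317 and 0.674. Rack1, a protein of the small ribosomal subunit, had 919 P-sites on 954 nt with E-RNaseI and 365 on a 327 nt ORF with another stop codon with A-RNaseI.

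On the same ORFs, the ratios were more spread than counting error gives. Among genes with the same ORF and at least 200 summed P-sites, the SD of the log2 ratio was 0.280, where counting error alone would give 0.143 (786 genes). Over all 1601 genes the chi-square per degree of freedom was 4.33. The same measure between the standard and the deep list of E-RNaseI was 1.04 over 2424 genes, so these lists differed by about counting noise and were counted as readings of 1 sample, not as replicates. How much of the spread of the RNase pair separate cultures of 1 condition would give was not measured.

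Ribosomal proteins were among the genes with a higher share with E-RNaseI on the same ORF. RpL31 (2R from 9587193 to 9587989) had 768 P-sites for E-RNaseI and 492 for A-RNaseI, a ratio of 1.56 (1.39 to 1.75). In the presence of cycloheximide it had 2298 and 817, a ratio of 1.31 (1.21 to 1.42), and in the deep list 10592. RpS3A had 1620 and 1254 P-sites, a ratio of 1.29 (1.20 to 1.39), and 1.15 with cycloheximide. The direction was the same in both pairs for these genes.

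RpL38, by contrast, had 552 and 373 P-sites, a ratio of 1.48 (1.29 to 1.69), and 951 and 540 with cycloheximide, a ratio of 0.821 (0.738 to 0.915) on the same ORF of 210 nt. Subunits of the respiratory chain were also among them. The cytochrome c oxidase subunit gene cype had 98 and 52 P-sites, a ratio of 1.88 (1.33 to 2.69), and was in no list with cycloheximide. ND-18, of complex I, had 71 and 36, a ratio of 1.97 (1.3 to 3.03), against 0.999 with cycloheximide. Nup62, a nucleoporin of the central channel, had 79 and 44, ratios of 1.79 (1.23 to 2.66) and 1.51 (1.16 to 1.97). The other genes were Cog1 (1.68), a subunit of a Golgi tethering complex, CG5104 (1.97), CG5885 (1.34) and CG42239 (1.54).

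With A-RNaseI, the genes with a higher share included mitochondrial and cytoskeletal proteins. Tom7 (2R from 8951595 to 8952242), a small subunit of the translocase of the outer mitochondrial membrane, had 125 P-sites for E-RNaseI and 290 for A-RNaseI on an ORF of 162 nt. Its ratio was 0.431 (0.347 to 0.533), but 1.11 (0.935 to 1.32) with cycloheximide, with 461 and 194 P-sites. ATPsynbeta, the catalytic subunit of ATP synthase, had 1871 and 2873, ratios of 0.651 (0.614 to 0.690) without and 0.689 (0.661 to 0.718) with cycloheximide. The succinate dehydrogenase flavoprotein SdhA had 113 and 225 (0.502), and ND-42, of complex I, 123 and 229 (0.537). With cycloheximide SdhA and ND-42 were at 0.633 and 0.478, there with other start codons. Of these 4 mitochondrial genes all but Tom7 had a ratio below 1 in both pairs. On the same ORF in both pairs, that held for ATPsynbeta only. With cycloheximide, the ORF with E-RNaseI was the shorter one for SdhA (1653 against 1929 nt) and ND-42 (1089 against 1221 nt).

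Cytoskeletal genes followed. Filamin, encoded by cher, had 422 and 764 P-sites, a ratio of 0.552 (0.489 to 0.623), and 0.738 with cycloheximide. The spectraplakin gene shot (2R from 13864237 to 13942110), with an ORF of 25863 nt over 27 exons, had 272 and 499, a ratio of 0.545 (0.468 to 0.633), and 0.685 with cycloheximide. For alphaTub84B the counts were 1442 and 2310, the ratio was 0.624 (0.584 to 0.667), and 0.752 with cycloheximide, although near-identical alpha-tubulin copies may share its reads. All 3 were lower with E-RNaseI in both pairs. Cyp1, a cyclophilin, was at 0.604 without and 0.976 with cycloheximide, there with ORFs of 681 nt for E-RNaseI and 495 nt for A-RNaseI. The glutathione transferase GstE12 had 39 and 89 P-sites (0.438), and 1.42 with cycloheximide, there with other start codons. The gene tex, for a THO complex subunit of mRNA export, had 13 and 41 P-sites, a ratio of 0.317 (0.156 to 0.603).

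The most abundant genes had ratios from 0.725 (tsr) to 1.17 (14-3-3epsilon). The elongation factor eEF1alpha1 took the largest share in both lists, with 8581 P-sites for E-RNaseI and 10994 for A-RNaseI, a ratio of 0.780 (0.758 to 0.803) and of 0.778 with cycloheximide. Its partner in elongation, eEF2, was at 0.802 and 0.853. The chaperones Hsc70-3, of the ER lumen, and Hsc70-4, of the cytosol, were at 0.864 and 0.812, and at 0.878 and 0.816 with cycloheximide. The cofilin gene tsr had 3040 and 4193 P-sites (0.725), and LanA, a laminin chain, 3259 and 3776 (0.863). All 6 were lower with E-RNaseI in both pairs. The actin genes Act5C (0.981) and Act42A (1.12), which may share reads, were near 1. So were the fatty acid synthase FASN1 (1.07) and ERp60 (0.937, with another start codon). The adaptor 14-3-3epsilon was higher with E-RNaseI, with 3183 and 2710 P-sites (1.17), and 1.29 with cycloheximide.

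The ratios of the pair without cycloheximide were read beside those of the pair with it, which came from other samples. Among 525 genes with the same ORF in all 4 standard lists and at least 200 summed P-sites in each pair, Pearson's r of the log2 ratios was 0.629 and Spearman's rho 0.653, and 72.4% of genes lay on the same side of the median in both. Over all 2792 genes compared in both pairs, r was 0.273, rho 0.367 and 65.5% lay on the same side. These correlations are across genes, which are not independent replicates. The points share the RNase, the buffer, the read lengths selected for each RNase and the annotation.

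**Figure D4:**
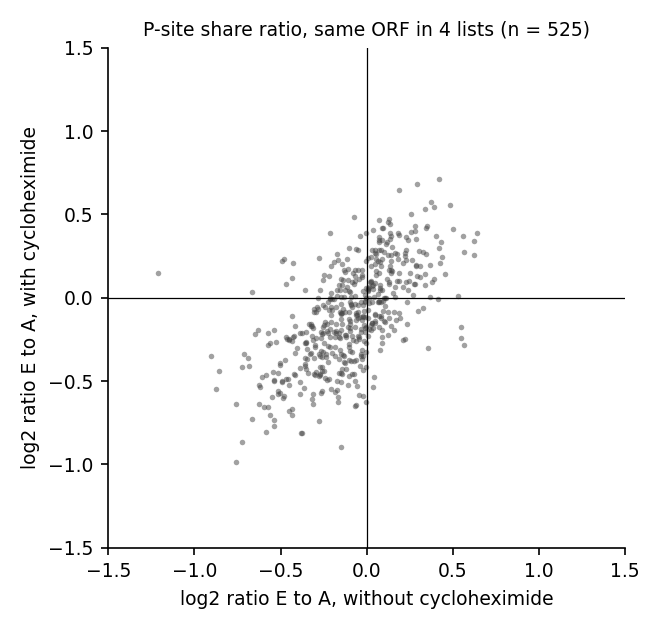
Log2 ratio of P-site shares, E-RNaseI to A-RNaseI, with cycloheximide (y) against without (x), for the 525 genes with the same ORF in all 4 standard lists and at least 200 summed P-sites in each pair. Each point is a gene. The points run along the rising diagonal (r = 0.629), with a single gene, Tom7, far to the left near −1.21.

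Among the gene groups, ER translocation and folding was lowest, followed by the proteasome, vesicle coats and the V-ATPase. The shares of intervals over all genes, 10.7% above 1 and 17.8% below, are the background for the counts of intervals given here, and an interval is narrower where a gene has more P-sites. Genes of ER translocation and folding had a median log2 ratio of −0.27 over 23 genes, against −0.08 over all genes, and 12 of the 23 had an interval below 1 against 1 above it. The median was −0.24 on the same ORFs and −0.34 with cycloheximide. Within the group twr, a catalytic subunit of the signal peptidase, was lowest, with 64 and 127 P-sites (0.504), and Sec61beta, of the translocon, highest, with 142 and 92 (1.54). Vesicle coat subunits had a median of −0.17 over 20 genes and −0.26 with cycloheximide, between deltaCOP (0.706) and Sec24CD (1.24). V-ATPase subunits, which acidify endosomes and lysosomes, were at −0.17 over 14 genes and −0.22 with cycloheximide, between Vha100-2 (0.611) and Vha13 (1.66). Proteasome subunits were at −0.18 over 30 genes and −0.20 with cycloheximide, with 11 intervals below 1 and 2 above, between Prosbeta3 (0.637) and Rpn6 (1.41). No gene of these 4 groups was past 2-fold.

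Ribosomal proteins were near the median of all genes. The large subunit had a median of −0.05 over 47 genes, with 9 intervals above 1 and 17 below. RpL24 was lowest, with 248 and 416 P-sites (0.596), and RpL24-like, which acts in the biogenesis of the large subunit, highest, with 64 and 24 on ORFs of 573 and 108 nt (2.67). The small subunit had a median of −0.01 over 28 genes, with 7 intervals on each side. Mitochondrial ribosomal proteins had a median of 0.00 over 37 genes. On the same ORFs this was −0.15 over 22 genes, below the −0.10 of all such genes, so their side of the median depended on the ORFs compared. Translation factors had a median of −0.07 over 36 genes, from eIF1A (0.631) to eIF3j (2.64, with another start codon), and aminoacyl-tRNA synthetases one of 0.00 over 21, from AlaRS-m (0.576) to MetRS (4.65, with another start codon).

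The groups at the upper end were small in their difference. Genes for cyclins and mitosis had a median of 0.12 over 23 genes, with 3 intervals above 1 and 2 below, and of 0.00 with cycloheximide. It was 0.04 on the same ORFs and −0.12 for P-sites per nt, where all genes were at −0.14. They ran from Klp10A, a microtubule-depolymerizing kinesin (0.598), to BubR1, of the spindle checkpoint (1.57). Chromatin genes had a median of 0.03 over 25 genes, from Su(z)12, of the Polycomb complex (0.592), to Acf (2.64), a chromatin remodelling subunit, both with other ORFs in either list. Respiratory chain and ATP synthase genes were at −0.04 over 54, chaperones at −0.06 over 18 (Hsp68 to Droj2), DNA replication genes at −0.07 over 24 (PolD1 to RfC4), and cytoskeletal genes at −0.07 over 31 (Arpc3A to Arpc4). Extracellular matrix and secreted proteins were at −0.08 over 13 (Idgf3 to GNBP1), the median of all genes, with 5 intervals below 1 and 0 above. Under 7 other ways of computing the ratios, 7 of the 16 groups kept their side of the median of all genes, 4 below it (ER translocation and folding, proteasome, vesicle coats and V-ATPase) and 3 above it (cyclins and mitosis, chromatin and aminoacyl-tRNA synthetases), and 9 changed sides under at least 1.

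**Figure D5:**
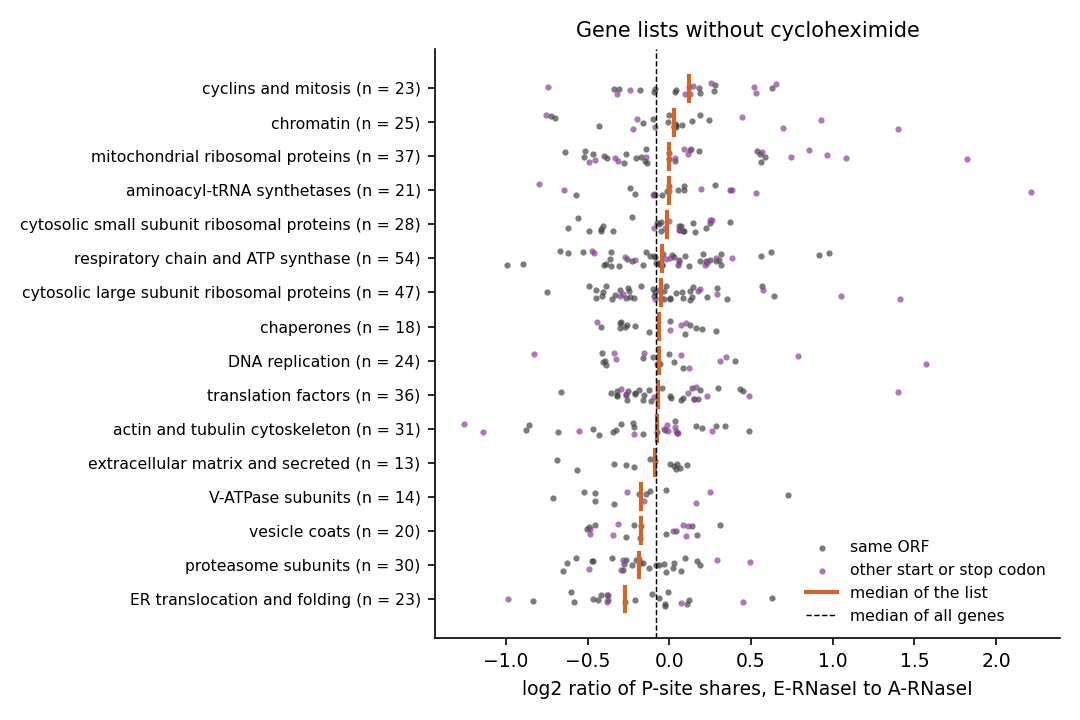
Log2 ratio of P-site shares, E-RNaseI to A-RNaseI, without cycloheximide, for the genes of 16 groups. Each point is a gene, dark where both lists had the same ORF and purple where the start or stop codon differed, orange bars are group medians and the dashed line is the median of all 2947 genes (−0.08). ER translocation and folding is lowest (−0.27) and cyclins and mitosis highest (0.12), and the points furthest to the right are genes with other ORFs.

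The ratio on the same ORF also followed ORF length. Its median was 0.05 under 300 nt (44 genes), −0.05 at 300 to 599 nt (242), −0.12 at 600 to 1199 nt (457), −0.15 at 1200 to 2399 nt (559), −0.06 at 2400 to 4799 nt (230) and 0.02 at 4800 nt or more (69). ORFs of middle length thus had the lowest ratios. In the presence of cycloheximide the medians of the same classes were 0.09, 0.01, −0.12, −0.21, −0.14 and −0.04. The part of ORF length in the gene group medians was not tested.

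Translation outside annotated coding regions was called rarely with either RNase. By stop codon, 19 uORFs were found with E-RNaseI and 8 with A-RNaseI, with medians of 11 and 9 P-sites over the ORFs, and 2 stop codons were shared. Those were in PPP1R15, a regulatory subunit of the phosphatase that acts on eIF2alpha, with 37 and 38 P-sites, and in Xrp1, a stress-response transcription factor, with 90 and 45. The uORFs with the most P-sites with E-RNaseI only were those of Arf6, a small GTPase (60 P-sites on the longer of a pair), CG11857 (32, on 9 nt) and Tif-IA, an initiation factor of RNA polymerase I (20). Those of Arf6 were also called with A-RNaseI after cycloheximide treatment, with 112 P-sites on the longer, whereas those of CG11857 and Tif-IA were found with E-RNaseI only in all lists. With A-RNaseI only, the uORFs of Herc4 (11 P-sites), Tdg (9) and fdl (9) were also in the deep list of E-RNaseI, and those of Pxn (8), ps (8) and scat (7) were in no other list. The main ORF of each of these genes with a uORF in 1 list only was found with both RNases. A dORF of mthl3 (13 and 7 P-sites) and an ncORF of lncRNA:CR43855 (24 and 18) were shared, and a dORF of tmod was found with E-RNaseI only (9).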

How the data were processed

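The authors trimmed adapters (cutadapt 2.10), removed rRNA and tRNA reads (Bowtie2 2.4.1), mapped the rest to FlyBase Release 6 (STAR 2.7.5c, SAMtools 1.10) and called ORFs with RiboTaper 1.3, which required more than 5 P-sites per exon and 50% of P-sites in frame. ORFs resting by more than 30% on multimapping reads were removed. The deposited lists hold a raw count per ORF, read as P-sites. The methods subsample to about 2000000 reads, and whether the lists come from that subsample is not stated.

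Values and figures were made with matplotlib 3.10.9, numpy 2.4.6, scipy 1.17.1 and pandas 2.3.3 under Python 3.11.15. ORFs within exactly 1 of 13962 protein-coding RefSeq genes were given that gene. The table holds no strand. The longest ORF per stop codon was kept, and overlapping ORFs of a gene were counted once, at the highest count. Genes with at least 50 P-sites summed over both lists were compared by share of P-sites, with an exact Clopper-Pearson 95% interval on the ratio. Counts and intervals replace tests, with 1 sample a side. Gene lists and the rule for named genes were chosen with earlier results of these data known. Named were the 10 genes on each side with the ratio furthest from 1 by its nearer bound on the same ORF, the 10 most covered genes found with 1 RNase only, the 5 largest start distances on each side, the 10 most abundant genes, genes with uORFs shared or any dORF or ncORF, the extremes of each list and the cell type markers. Genes compared on other ORFs, other uORFs and further members named in a list were picked after their values were seen.

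On simulated counts for 2947 genes of this pair, 95.9% of intervals held the true ratio, and 100% of 200 genes changed 4-fold passed 2-fold, as did 0.255% of unchanged genes. The simulated counts held counting error only, without the wider spread of the real pair or ORFs that differ between lists. They check the computation and give no error rate for the genes named here. On a simulated list of 4731 ORFs, 4 of 4 known numbers were recovered. Sequences were not used here. Alternatives were P-site minimums, ORF types and lengths, loci, totals, P-sites per nt, same ORFs and the deep list.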

Additional observations from a re-analysis of the deposited data

Results flagged for a closer look

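For 7 of the 87 named genes compared in both pairs, and for 59 of all 2792 such genes, the interval of the ratio of E-RNaseI to A-RNaseI lay wholly on one side of 1 without cycloheximide and wholly on the other with it. Of the 59, 7 had the same ORF in both lists of both pairs. RpL38 was the only one of the 7 named genes of that kind, with a ratio of 1.48 without and 0.821 with cycloheximide. GstE12 had 0.438 without and 1.42 with it, but the pair with cycloheximide used ORFs of 669 and 720 nt in place of 681 nt. RfC4, a subunit of the clamp loader of DNA replication, had 2.97 and 0.745, and Rab8 5.22 and 0.754. In both of these the ORF with A-RNaseI was the shorter one without cycloheximide, and the ORFs were the same with it. In reverse, CG12773 had 0.343 and 1.48, skd 0.302 and 1.75, and fry 0.615 and 2.81, with ORFs of different length in each pair. The difference between the pairs was not tested, since each side is 1 sample.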

How the results depend on the processing

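No paired analysis was possible because each condition has 1 standard sample. Of the alternative values, 125 stayed near the main ones and 32 moved. Directions also changed. The side with more genes past 2-fold turned from A-RNaseI to E-RNaseI (84 against 53) with the total of shared genes, (85 against 51) with centring on the median, (84 against 80) with sums over stop codons, and with the deep list and at 200 summed P-sites. Of the 16 gene group medians, 9 changed their side of the median of all genes and 11 their sign under at least 1 of 7 alternatives. The chromatin median was −0.03 with the deep list and −0.0091 per nt. Genes found with E-RNaseI only (1153) became 723 among ORFs of at least 20 P-sites, 2267 with the deep list and 476 when genes in the list of A-RNaseI with cycloheximide were left out, and stop codons (1506) became 885 at 20 P-sites and 3402 with the deep list. Genes found with A-RNaseI only (210) became 8 with the deep list and 24 without those in the list of E-RNaseI with cycloheximide, and stop codons (296) became 27 with the deep list. Genes at least 2-fold higher with E-RNaseI (67) and A-RNaseI (72) became 2 and 10 on the same ORFs, 114 and 41 with the deep list, 112 and 125 at 20 summed P-sites, 14 and 2 at 200, and 218 and 348 at 1.5-fold, and with P-sites per nt the first became 17. Start codons upstream with E-RNaseI were 58.4%, and 91.3% with the deep list. Shared identifiers (47.7%) were 93.6% by stop codon, 52.4% at 20 P-sites and 43.8% with the deep list. Genes on the same side of the median in both pairs (65.5%) were 69.8% at 200 summed P-sites and 69.2% on the same ORFs. Per nt, the median of small subunit ribosomal proteins was −0.10, of mitochondrial ribosomal proteins −0.23 and of cyclins and mitosis −0.12, where that of all genes was −0.14. With the deep list the small subunit was at −0.094 and the respiratory chain at −0.13, where all genes were at −0.07. The chromatin median was 0.11 both with the total of shared genes and with centring on the median. Changes in the deep list come with 7833986 P-sites against 530682. Low counts limit the calls near the minimum of 6 P-sites.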
